A study of Mus musculus with 18 samples.

Results

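Brachyury, whose gene is named T, was followed here together with 3 other transcription factors of the primitive streak, Evx1, Mixl1 and Mesp1, in mouse gastruloids. The 4 genes were taken by name from a table of 55385 genes, and all 4 passed the filter on low counts that left 16041 genes for testing, Mesp1 only through control 96 h, the group where it was high. Its differences from control 96 h are therefore given as values, with no test, and are left out of the counts of called genes. Gastruloids are aggregates of embryonic stem cells that elongate and form germ layers in culture when the Wnt pathway is switched on for a day with CHIR, an inhibitor of the kinase GSK3. The study compared a pulse given at the usual time with a pulse given a day earlier.

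The primitive streak is the region of the embryo where epiblast cells turn into mesoderm and definitive endoderm. Wnt3 and Nodal signals open it, β-catenin bound to TCF/LEF factors switches on T, and T, a T-box factor, is needed for posterior mesoderm and the notochord. Evx1 is a homeobox gene that is strongest at the posterior end of the streak, Mixl1 is a paired-type homeobox gene of the streak that is needed for endoderm and axial mesoderm, and Mesp1 is a basic helix-loop-helix factor that marks the first mesoderm to leave the streak, the heart progenitors among it.

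All cells were wild type and of the strain 129/SVEV. In the control arm CHIR was present between 48 and 72 h after aggregation, and in the early arm between 24 and 48 h. Each arm was collected at 48, 72 and 96 h with 3 libraries per group, 18 in all. The control libraries of 48 h were therefore untreated, and a pulse had just ended in early libraries of 48 h and in control libraries of 72 h. The early libraries of 72 and 96 h had been without CHIR for 1 and 2 days. RNA came from pooled gastruloids, so a lower level cannot be told apart as fewer cells with the transcript or less transcript per cell. Nothing in the labels tells whether replicates were separate cultures, so p-values measure the spread between these libraries, which may be technical.

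Total counts per library ranged from 14841728 to 24536538. Levels are CPM, counts scaled to the effective library size, given as mean ± SD with n = 3, and changes are log2 fold changes ± SE. Genes with an adjusted p under 0.05 are said to be called. Pluripotent and epiblast markers (Pou5f1, Sox2, Nanog, Utf1, Fgf5, Otx2) summed to 1713 to 2224 CPM in every library of 5 groups and to 314 to 593 CPM in the control libraries of 96 h. Single genes moved within that sum. With the early pulse Nanog rose (2.30 ± 0.12), Fgf5 (-1.67 ± 0.24), Utf1 (-0.88 ± 0.14) and Otx2 (-0.80 ± 0.15) fell, and Sox2 and Pou5f1 were not called. Sox2 (-2.49 ± 0.25), Otx2 (-2.10 ± 0.16) and Utf1 (-1.88 ± 0.15) were lower in control 72 h than in early 48 h, and Nanog and Fgf5 were higher. Among markers of other cells, Elf5 and Gata3 of trophoblast, Col3a1 and Lum of fibroblasts and Afp of visceral endoderm were under 1 CPM in every library. The trophoblast list of 6 genes, which includes Eomes, summed to 163 to 210 CPM in early 96 h, 34 to 129 CPM in control 72 h, 39.9 to 52.9 CPM in early 48 and 72 h and 9.91 to 21.1 CPM in untreated and control 96 h libraries. The fibroblast list of 7 genes summed to 40.7 to 69 CPM in control 96 h and 9.04 to 31 CPM in all other libraries. The extraembryonic endoderm list of 9 genes, which includes Afp, summed to 67.1 to 85.1 CPM in early 72 and 96 h and 14.8 to 60 CPM in all other libraries. The control libraries numbered 3 stood apart at all 3 ages: their chi-square per degree of freedom against the other control libraries was 15.4 to 28.1, and 1.41 to 7.9 for all other pairs of replicates.

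T lies on chromosome 17 from 8434423 to 8442496 on the plus strand, Evx1 on chromosome 6 from 52313498 to 52318378 on the plus strand, Mixl1 on chromosome 1 from 180693043 to 180697034 on the minus strand, and Mesp1 on chromosome 7 from 79792241 to 79793788 on the minus strand (GRCm38, GENCODE M21). The 250 bases before the start of T and of Evx1 are shown because these 2 genes rose with both pulses and differ in whether they hold the core letters of a TCF/LEF site. Both are RefSeq sequences of GRCm38.p6, on the plus strand, from chr17:8434173-8434422 and chr6:52313248-52313497. The Evx1 window lies inside the antisense gene Evx1os. Capitals mark the TCF/LEF core.
T: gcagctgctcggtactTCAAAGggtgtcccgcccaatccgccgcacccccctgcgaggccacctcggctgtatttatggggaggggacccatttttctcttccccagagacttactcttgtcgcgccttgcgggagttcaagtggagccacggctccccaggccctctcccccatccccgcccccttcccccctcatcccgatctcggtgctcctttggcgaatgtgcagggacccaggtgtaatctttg
Evx1: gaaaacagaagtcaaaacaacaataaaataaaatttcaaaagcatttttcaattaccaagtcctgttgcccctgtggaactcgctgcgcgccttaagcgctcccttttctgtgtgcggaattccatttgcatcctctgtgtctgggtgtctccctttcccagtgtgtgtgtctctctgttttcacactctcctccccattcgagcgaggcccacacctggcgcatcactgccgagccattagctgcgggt
Searched on both strands for CTTTGA or CTTTGT, the T window held 1 match, TCAAAG, at 234 to 229 bases before the start, and the Evx1 window held 0. Of all 32851 RefSeq promoter windows of that length, 27.6% held at least 1 match. The T-box letters GGTGTGA was found in neither window, against 3.33% of all windows. The E-box CANNTG, the letters bound by helix-loop-helix factors such as Mesp1, occurred 3 times before T and 2 times before Evx1, where 66.2% of all windows held at least 1 and 31.8% at least 2. RefSeq windows were matched for T, Evx1 and Mesp1. That of Mesp1 runs back from a RefSeq start 198 bases inside the gene as placed above, so most of it, with both of its TCF/LEF cores, lies within that gene, and it is not read as a promoter here. These are letter matches in a short window and say nothing of binding.

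T and Evx1 were higher at the end of both CHIR pulses than in untreated gastruloids of 48 h, far more so after the control pulse. No untreated libraries of 72 h were collected, so the control pulse cannot be told apart from the day of age gained with it. In untreated gastruloids of 48 h, T was at 0.713, 0.297 and 0.769 CPM in the 3 libraries. At the end of the early pulse it was at 39.2, 37.2 and 45.4 CPM, and at the end of the control pulse at 1008, 1263 and 872 CPM. The 3 groups did not overlap, and each lay far above the one before. Against the untreated libraries T was 69.5-fold higher after the early pulse (6.12 ± 0.33, adjusted p = 4.75e-11) and 1794-fold higher after the control pulse (10.81 ± 0.28, adjusted p = 1.40e-15). These comparisons share their untreated libraries.

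Evx1, the posterior streak homeobox gene, was almost silent before the pulse, with 8 counts over the 3 untreated libraries and levels of 0.153, 0.099 and 0.192 CPM. It stood at 7.11, 4.66 and 8.35 CPM after the early pulse and at 75.5, 94 and 41.3 CPM after the control pulse. As for T, the untreated, early and control libraries formed 3 separate ranges. The rise was 5.48 ± 0.73 (44.8-fold, adjusted p = 6.59e-06) with the early pulse and 8.87 ± 0.51 (467-fold, adjusted p = 5.91e-11) with the control pulse.

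Mixl1 rose with the control pulse, and its change with the early pulse was small and uncertain. Its untreated libraries held 0.866, 0.841 and 0.769 CPM, the early libraries of 48 h 2.08, 1.41 and 2.12 CPM, and the control libraries of 72 h 89.3, 134 and 22 CPM. All 3 groups were separate, yet the early step was small and the control libraries differed up to several-fold among themselves. With the control pulse, and the day of age that came with it, Mixl1 rose by 6.62 ± 0.73 (98.2-fold, adjusted p = 3.08e-07). The early pulse gave 1.18 ± 1.14 (adjusted p = 0.434) in the fit of all 18 libraries and 1.17 (adjusted p = 0.00184) in a fit of only the 6 libraries compared.

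Mesp1, the factor of the first migrating mesoderm, stayed near the detection limit at the end of both pulses. The untreated libraries held 3, 0 and 1 counts, the early libraries of 48 h 3, 1 and 1, and the control libraries of 72 h 8, 5 and 2. The groups overlapped. The early pulse gave 0.32 ± 0.99 (adjusted p = 0.826). The control pulse gave 1.86 ± 0.79 at an adjusted p of 0.0488, which was lost with DESeq2's Wald test (0.0754), with DESeq2's size factors (0.0506) and on leaving out any of 4 single libraries. Without untreated replicate 2 the value was 1.26, and without untreated replicate 1 it was 3.05.

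**Figure D1:**
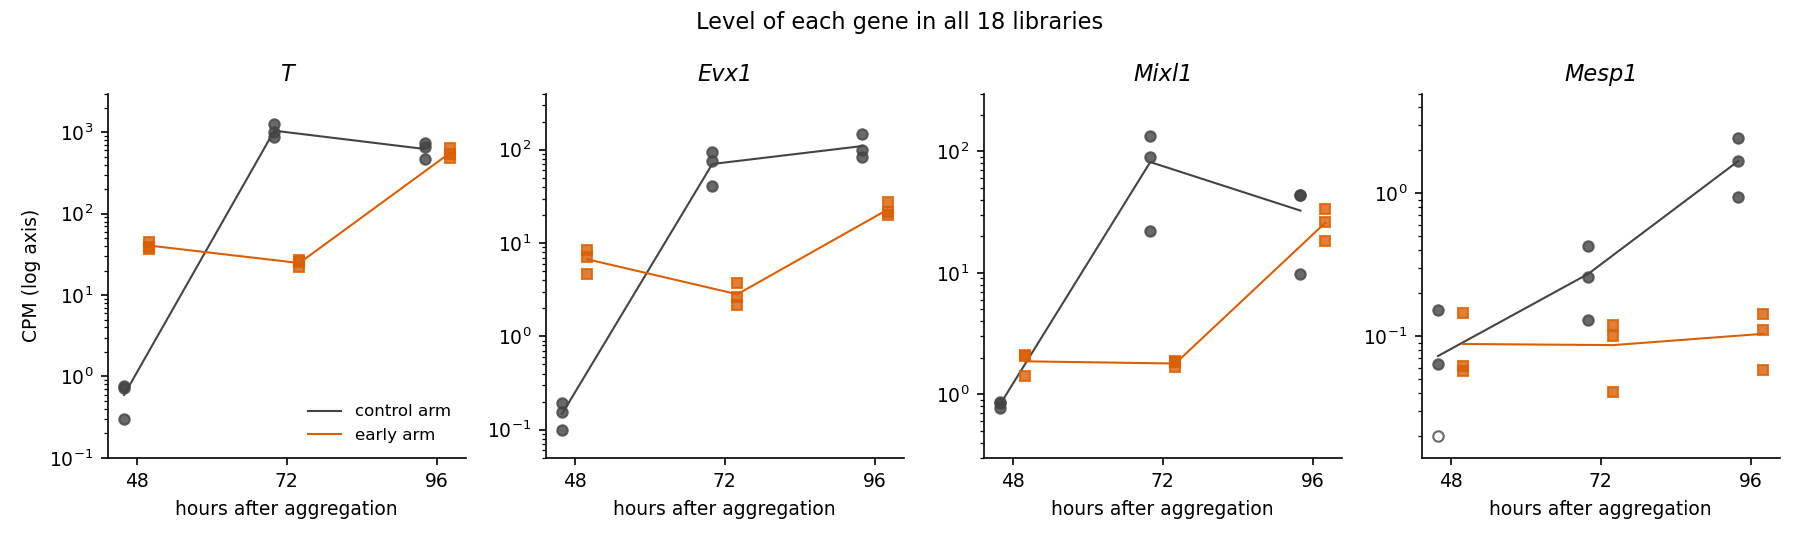
Level of T, Evx1, Mixl1 and Mesp1 in CPM (log axis, a different range in each panel) against hours after aggregation. Each symbol is 1 library, grey circles for the control arm and orange squares for the early arm, lines join group means, and the open circle for Mesp1 is a library with 0 counts drawn at the bottom of the panel. T, Evx1 and Mixl1 climb in the control arm between 48 and 72 h and in the early arm between 72 and 96 h, while Mesp1 is highest in the control libraries of 96 h.

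Counted together, the early pulse called 2 of the 4 genes, T and Evx1, where 43.7% of all tested genes were called in either direction, 23% as higher and 20.7% as lower. The control pulse called all 4, where 61.4% were called, 31.1% as higher and 30.3% as lower. Among these the call of Mesp1, on overlapping libraries, was lost under several of the alternatives given above. The ends of the pulses were also compared directly, with ages of 48 and 72 h that differ along with the start of the pulse. In that comparison 3 of the 4 genes were higher in the control arm, against 61.1% of all genes called, 31.7% as higher and 29.5% as lower. T was 25.8-fold (4.69 ± 0.18, adjusted p = 3.33e-13), Evx1 10.4-fold (3.38 ± 0.29, adjusted p = 1.21e-08) and Mixl1 43.3-fold higher (5.44 ± 0.64, adjusted p = 8.69e-07). Mesp1 gave 1.55 ± 0.76 (adjusted p = 0.0851, and 0.0294 without the 3 control libraries numbered 3). The early pulse thus brought T to 3.87%, Evx1 to 9.55% and Mixl1 to 2.29% of the mean CPM reached by the control pulse.

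On the day after the early pulse, T and Evx1 fell. T fell from 40.6 ± 4.26 to 24.7 ± 2.58 CPM, with libraries of 25.5, 21.9 and 26.9 CPM at 72 h. Evx1 fell from 6.71 ± 1.88 to 2.82 ± 0.81 CPM, with libraries of 3.72, 2.61 and 2.15 CPM. For both genes every library of 72 h was below every library of 48 h. The changes were -0.72 ± 0.18 for T (adjusted p = 0.00316) and -1.25 ± 0.39 for Evx1 (adjusted p = 0.0153, but 0.0536 to 0.0645 without early 48 h replicate 3, early 72 h replicate 2 or early 72 h replicate 3). Mixl1 stayed at 1.79 ± 0.109 CPM (-0.07 ± 0.95, adjusted p = 0.965) and Mesp1 at 0.0864 CPM, on 5 counts (-0.15 ± 0.94, adjusted p = 0.913). Of all genes 42.6% were called in this step, 20.7% as higher and 21.9% as lower, and of the 4 genes 2 were called, both lower.

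T and Evx1 were still far above their untreated levels at that time. T in the early libraries of 72 h was 42.2-fold above the untreated libraries (5.40 ± 0.35, adjusted p = 1.31e-09) and Evx1 18.9-fold above (4.24 ± 0.86, adjusted p = 7.25e-04), with no overlap. Mixl1 gave 1.11 ± 1.13 (adjusted p = 0.461; 9.05e-04 when only these 6 libraries were fitted), and its 1.67 to 1.87 CPM lay above the untreated 0.769 to 0.866 CPM. For Mesp1 the libraries overlapped (0.16 ± 0.99, adjusted p = 0.916). In this comparison 40.8% of all genes were called, 21.2% as higher and 19.6% as lower, and 2 of the 4 genes were called, both higher.

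In the control arm T, Evx1 and Mixl1 were all called between 72 and 96 h, 1 higher and 2 lower, where 54.9% of all genes were called, 27.5% higher and 27.4% lower. T fell to 747, 653 and 473 CPM, below every library of 72 h (-0.75 ± 0.15, adjusted p = 3.03e-04). Mixl1 fell to 44.1, 43.8 and 9.79 CPM, with ranges that overlapped (-1.31 ± 0.46, adjusted p = 0.0209). The library numbered 3 was the lowest of its group at both ages for both genes.

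Evx1 was called higher in the same step, and the counts of Mesp1 were highest at its end. Evx1 was at 98.2, 83.2 and 147 CPM, overlapping the libraries of 72 h, and gave 0.63 ± 0.23 (adjusted p = 0.026). That call rested on the libraries numbered 3, the lowest of 72 h and the highest of 96 h: without these control libraries the value was 0.11 (adjusted p = 0.44), and with both groups fitted alone the adjusted p was 0.135. Mesp1 had 60, 31 and 15 counts, or 2.44, 1.68 and 0.935 CPM, above every other library of the series, at a log2 value of 2.60 over control 72 h. The Mixl1 fall was also lost without control 72 h replicate 2 (-0.77, adjusted p = 0.184) or control 72 h replicate 1 (-1.25, adjusted p = 0.0536).

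On the day after the pulse, T fell in both arms, and the change of Evx1 differed between them. The difference between the changes (early minus control) was 0.03 ± 0.23 for T (adjusted p = 0.943) and -1.88 ± 0.45 for Evx1 (adjusted p = 0.00248), which is -1.34 (adjusted p = 9.84e-05) without the 3 control libraries numbered 3. For Mixl1 it was 1.25 ± 1.06 (adjusted p = 0.362, and 0.0171 without those libraries), and the value of Mesp1 was -2.76. This difference called 1 of T, Evx1 and Mixl1, against 44.5% of all genes, 22.8% as higher and 21.7% as lower. In level, the early libraries of 72 h were below the control libraries of 96 h by 25.4-fold for T, 38.4-fold for Evx1 and 18.2-fold for Mixl1, all called, in a comparison that called 69.7% of all genes, 34.3% as higher and 35.4% as lower.

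In the early arm, T, Evx1 and Mixl1 rose again between 72 and 96 h, with no CHIR in the medium since 48 h. T went from 25.5, 21.9 and 26.9 CPM to 641, 541 and 478 CPM. Evx1 went from 3.72, 2.61 and 2.15 CPM to 21.4, 27.2 and 19.8 CPM, and Mixl1 from 1.84, 1.87 and 1.67 CPM to 26, 33.6 and 18.3 CPM. For all 3 genes each library of 96 h was several times above each library of 72 h. T rose 22.5-fold (4.49 ± 0.18, adjusted p = 2.81e-11), Evx1 8.03-fold (3.01 ± 0.34, adjusted p = 2.87e-06) and Mixl1 14.4-fold (3.85 ± 0.66, adjusted p = 2.18e-04). Mesp1 did not follow: it had 2, 3 and 1 counts, and gave 0.35 ± 0.91 (adjusted p = 0.794). This step called 3 of the 4 genes, all higher, against 35.3% of all genes called, 17.6% as higher and 17.6% as lower.

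The 3 rises held their calls in every alternative run, each single library left out included. Extraembryonic endoderm markers summed to 67.1 to 80.6 CPM in the early libraries of 72 h and 80 to 85.1 CPM at 96 h, against 14.8 to 60 CPM in the control libraries and 16.7 to 44.5 CPM in the early libraries of 48 h. Afp was under 1 CPM throughout. All 8 tested markers of this list but Gata6 were called higher in early 72 h than untreated, where 21.2% of all genes were. Ttr (2.52 ± 0.76) and Sox17 (2.13 ± 0.60) were among them. Between early 72 and 96 h Ttr rose again (1.83 ± 0.41) and the other tested markers were not called. Of the 4 tested trophoblast markers, Eomes and Tfap2c (0.72 ± 0.26) rose and Ascl2 fell (-1.47 ± 0.25) in this step, and of 5 tested fibroblast markers Pdgfrb rose (1.82 ± 0.23), to 4.1 ± 1.13 CPM. Pdgfrb had also risen with the control pulse (2.28 ± 0.22), to 7.16 ± 0.652 CPM. The part of these markers in the rise of the streak genes was not tested.

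**Figure D2:**
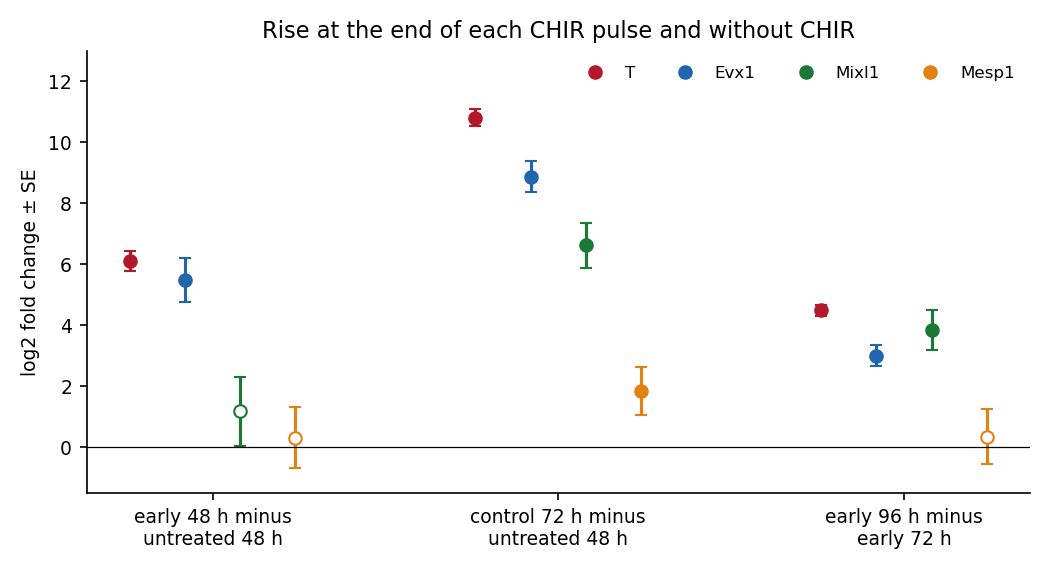
Log2 fold change ± SE of the 4 genes at the end of the early pulse, at the end of the control pulse and over the second day without CHIR in the early arm, n = 3 libraries per group. Filled symbols passed an adjusted p of 0.05 and open symbols did not; Mixl1 stands at 1.18 after the early pulse and at 3.85 in the later rise without CHIR, whereas T stands at 6.12 and 4.49.

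The rise without CHIR was set against each rise with CHIR by testing the difference of the log2 changes, over groups that share no library. Against the control pulse it was smaller by 6.32 ± 0.38 for T (log2 difference -6.32, adjusted p = 8.20e-10) and by 5.86 ± 0.84 for Evx1 (-5.86, adjusted p = 3.08e-05). The difference was -2.77 ± 1.20 for Mixl1 (adjusted p = 0.0821, and 3.99e-05 at -3.15 without the 3 control libraries numbered 3) and -1.51 ± 1.27 for Mesp1 (adjusted p = 0.383). Of all genes 35.7% were called in this test, 17.4% as higher and 18.3% as lower, and of the 4 genes 2 were called, both lower. The starting points differed, since T was at 24.7 CPM before the rise in the early arm and at 0.593 CPM before the control pulse.

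In CPM the same rises compare differently. T gained 1047 CPM with the control pulse, 40 CPM with the early pulse and 529 CPM in the early arm after 72 h. Evx1 gained 70.1, 6.56 and 20 CPM over the same steps, and Mixl1 80.8, 1.04 and 24.2 CPM. For each of the 3 genes the gain without CHIR was between that of the early pulse and that of the control pulse.

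Against the early pulse, the log2 difference was -1.63 ± 0.50 for T (adjusted p = 0.0143), -2.48 ± 1.07 for Evx1 (adjusted p = 0.0692), 2.67 ± 1.49 for Mixl1 (adjusted p = 0.159) and 0.03 ± 1.48 for Mesp1 (adjusted p = 0.989). T was thus the 1 gene of 4 called, against 42.8% of all genes, 20.4% as higher and 22.3% as lower. The direction for T and Evx1 depended on the scale: on log2(FPKM + 1), which shrinks changes that start from under 1, the difference was 0.98 for T (adjusted p = 0.00205) and 0.74 for Evx1 (adjusted p = 0.0931). For Mixl1 the value was positive in every alternative and was called in several, with an adjusted p of 0.00791 by DESeq2's Wald test and 1.02e-04 with only these 12 libraries fitted. Without untreated replicate 2 the T value was -1.28 (adjusted p = 0.0785).

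The level that T reached without CHIR lay below that of the control pulse and near that of control gastruloids of the same age. Early libraries of 96 h held 554 ± 82.4 CPM of T, 52.8% of the control mean at 72 h, with no overlap (-0.92 ± 0.15, adjusted p = 2.16e-04). They overlapped the control libraries of 96 h at 625 ± 139 CPM (-0.18 ± 0.15, adjusted p = 0.318, which became -0.33 and 0.00336 without the 3 control libraries numbered 3). Evx1, at 22.8 ± 3.9 CPM, was at 32.4% of the control level of 72 h (-1.62 ± 0.25, adjusted p = 1.38e-04) and 20.8% of that of 96 h (-2.26 ± 0.25, adjusted p = 3.59e-07), and overlapped neither group. At 96 h the arms thus overlapped in T and were apart in Evx1 by 4.78-fold.

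Mixl1, at 26 ± 7.66 CPM, overlapped both control groups. It was lower than at the end of the control pulse (-1.65 ± 0.47, adjusted p = 0.0155), a call lost without control 72 h replicate 2 (-1.09, adjusted p = 0.125), early 96 h replicate 1 (adjusted p = 0.0503) or early 96 h replicate 3 (adjusted p = 0.078). Against the control libraries of 96 h it gave -0.34 ± 0.47 (adjusted p = 0.559), and -0.74 (adjusted p = 1.25e-04) without the 3 control libraries numbered 3, of which that of 96 h held 9.79 CPM beside 44.1 and 43.8. Mesp1 had 6 counts in early 96 h and 106 in control 96 h, without overlap of the libraries, and gave -1.35 ± 0.73 (adjusted p = 0.2) against those of 72 h.

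Early 96 h against control 72 h called 3 of the 4 genes, all lower, where 22.7% of all genes were called, 11.8% as higher and 10.8% as lower. Early 96 h against control 96 h called Evx1, lower, and neither T nor Mixl1, where 59.1% of all genes were called, 29.5% as higher and 29.6% as lower. The order of T over the groups was control 72 h, control 96 h, early 96 h, early 48 h, early 72 h and untreated 48 h, and of these neighbours control 96 h and early 96 h overlapped. For Evx1 the order began with control 96 h and control 72 h, which overlapped, and was then the same as for T. For Mixl1 the first 3 groups overlapped with their neighbours, as did early 48 h and early 72 h. For Mesp1 control 96 h alone was separate from the next group.

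Levels of different genes were compared on FPKM, which takes transcript length into account. T was the highest of the 4 in every group but the untreated one, with a mean of 336 ± 62.9 FPKM in control 72 h, where Mixl1 was at 29.4 ± 20.1, Evx1 at 19.2 ± 7.23 and Mesp1 at 0.178 ± 0.0948. In early 96 h T was at 184 ± 25.5 FPKM, Mixl1 at 9.49 ± 2.79, Evx1 at 6.25 ± 1.03 and Mesp1 at 0.0685 ± 0.0282. In untreated gastruloids Mixl1, at 0.268 ± 0.02 FPKM, was above T, at 0.169 ± 0.0833. In control 96 h the order of the streak homeobox genes by group mean was the reverse of that in control 72 h. Evx1 was at 30.8 ± 9.86 and Mixl1 at 11.8 ± 7.05 FPKM. In control 72 h replicate 3, Evx1 (11.5 FPKM) was already above Mixl1 (8.09 FPKM).

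Measured within each library, Evx1 made up a smaller part of T in early 96 h than at other times in the early arm. Its FPKM was 9.87% to 15.1% of that of T in early 48 h, 7.52% to 12.7% in early 72 h and 2.76% to 4.12% in early 96 h. It was 4% to 6.49% in control 72 h and 10.6% to 26.2% in control 96 h. Early 96 h and control 72 h overlapped with each other and with no other group. Mixl1 ran between 2.27% and 11.8% of T over these 5 groups. Early 72 h, at 6.98% to 9.91%, lay above early 48 h (4.13% to 5.89%) and early 96 h (4.14% to 6.81%). All other pairs of groups overlapped. No test was made on these ratios.

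**Figure D3:**
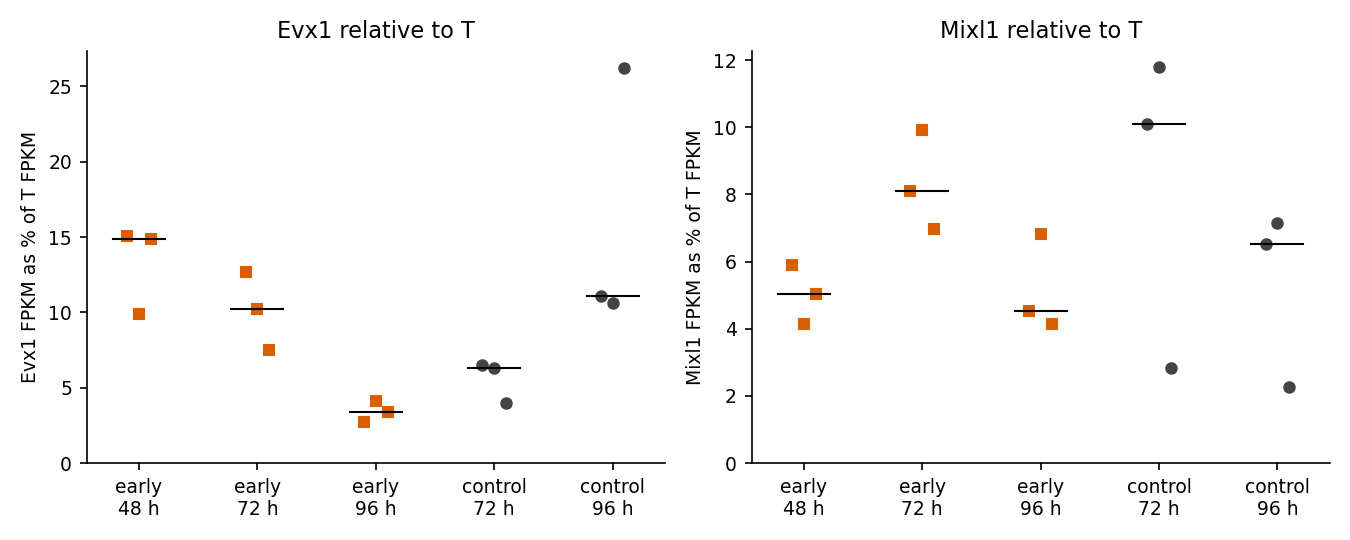
FPKM of Evx1 (left) and Mixl1 (right) as a percentage of the FPKM of T in the same library, for the 5 groups with T above background; each symbol is 1 library (orange squares early arm, grey circles control arm) and the bar is the median of 3. Evx1 sits at 2.76% to 4.12% in early 96 h, and its highest value, 26.2%, is control 96 h replicate 3.

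The genes known to open the streak were compared next, from lists of pathway members. Of 14 Wnt feedback and target genes, 13 rose and 0 fell with the control pulse, against 31.1% and 30.3% of all genes. Their median log2 change was 3.71, and 0.01 over all tested genes. With the early pulse 12 rose and 0 fell (median 2.35), against 23% and 20.7% of all genes. Axin2, a negative regulator of β-catenin that reports Wnt activity, went from 12.7 ± 0.907 CPM untreated to 215 ± 18.7 CPM with the control pulse (4.09 ± 0.07) and 120 ± 4.09 CPM with the early pulse (3.25 ± 0.07). The Wnt-inducible receptor gene Tnfrsf19 and the Sp-family gene Sp8 rose by 4.79 ± 0.11 and 4.89 ± 0.16 with the control pulse, and by 4.15 ± 0.11 and 3.08 ± 0.17 with the early pulse. Between the ends of the pulses Axin2 was higher in the control arm by 0.84 ± 0.06 and T by 4.69 ± 0.18.

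During the rise without CHIR, 10 of the 14 Wnt genes rose and 0 fell, against 17.6% of all genes in each direction. The median was 0.80. Axin2 rose by 0.54 ± 0.06 to 118 ± 8.22 CPM (adjusted p = 2.81e-06) and Nkd1, another feedback inhibitor of the pathway, by 1.06 ± 0.11 to 19.8 ± 1.43 CPM. Sp5, a direct target that represses other Wnt targets, rose by 2.46 ± 0.17 to 24.5 ± 2.79 CPM, and Fgf8, the streak FGF, by 2.47 ± 0.21 to 60.9 ± 6.09 CPM. Set against the control pulse, the rise of 13 of the 14 was smaller and that of 0 was larger, against 18.3% and 17.4% of all genes. In level, 10 of the 14 were lower in early 96 h than in control 72 h and 0 were higher. Of all genes 10.8% were lower and 11.8% higher. Axin2 differed by -0.86 ± 0.06 (adjusted p = 1.91e-08).

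Among 11 streak-inducing ligands and inhibitors, 8 rose with the early pulse, and 7 rose and 2 fell with the control pulse. In early gastruloids between 72 and 96 h, 5 rose and 2 fell. The shares of all genes called higher in these steps were 23%, 31.1% and 17.6%, and lower 20.7%, 30.3% and 17.6%. Wnt3, the ligand that starts the streak in the embryo, was at 2.49 ± 0.412 CPM untreated, 12.7 ± 1.87 in early 48 h, 17.1 ± 0.847 in early 72 h and 51.2 ± 3.29 CPM in early 96 h. Its last step was 1.58 ± 0.20 (adjusted p = 1.24e-05), and control 72 h held 49.9 ± 14.9 CPM. Wnt3a rose by 3.19 ± 0.43 but only to 1.80 ± 0.577 CPM, where control 96 h held 136 ± 2.17 CPM. Cer1, a secreted inhibitor of Nodal, BMP and Wnt, rose by 3.36 ± 0.58 to 1.88 ± 1.08 CPM.

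Against these rises, Gdf3, a ligand related to Nodal, and Lefty1, a Nodal antagonist, fell between early 72 and 96 h by -1.33 ± 0.13 and -0.96 ± 0.19. With the control pulse Gdf3 (-2.64 ± 0.14) and Bmp4 (-1.30 ± 0.18) fell. Nodal itself rose with the early pulse by 2.28 ± 0.20 and stayed at 174 ± 9.27, 199 ± 3.24 and 181 ± 1.38 CPM at 48, 72 and 96 h in the early arm. In the control arm it was at 117 ± 38.8 CPM at 72 h and fell to 8.38 ± 2.53 CPM at 96 h (-3.77 ± 0.23, adjusted p = 2.50e-10).

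Genes of the anterior streak and definitive endoderm rose in the same step as T. Of 8 tested, 6 rose and 0 fell between early 72 and 96 h (median 2.32), against 17.6% of all genes in each direction. At early 96 h 6 were higher and 2 lower than in control 96 h (median 2.23), against 29.5% and 29.6% of all genes. Eomes, the other T-box factor of the streak, went from 41.9 ± 3.06 to 174 ± 25.1 CPM (2.05 ± 0.35, adjusted p = 1.98e-04), where control 96 h held 2.45 ± 1.66 CPM. Foxa2, a forkhead factor of endoderm and axial mesoderm, rose by 4.04 ± 0.32 to 20 ± 2.45 CPM. The organizer gene Gsc rose by 4.25 ± 0.60 to 5.08 ± 1.27 CPM and the BMP antagonist Chrd by 1.45 ± 0.16 to 18.3 ± 2.88 CPM. The 2 genes lower than in control 96 h were Sox17 (-1.47 ± 0.32) and Lhx1 (-2.25 ± 0.52).

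With the control pulse 5 of the 8 anterior genes rose and 0 fell, against 31.1% and 30.3% of all genes. Foxa2 rose by 3.84 ± 0.42 and Gsc by 4.05 ± 0.63. A day later 5 had fallen and 2 had risen, against 27.4% and 27.5% of all genes. Eomes went from 91.4 ± 56.4 to 2.45 ± 1.66 CPM (-5.12 ± 0.49, adjusted p = 7.35e-08). Eomes in control 72 h ranged from 26.3 to 125 CPM between libraries. With the early pulse 2 rose, Hhex and Eomes, and 1 fell, Chrd, where 23% of all genes rose and 20.7% fell.

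**Figure D4:**
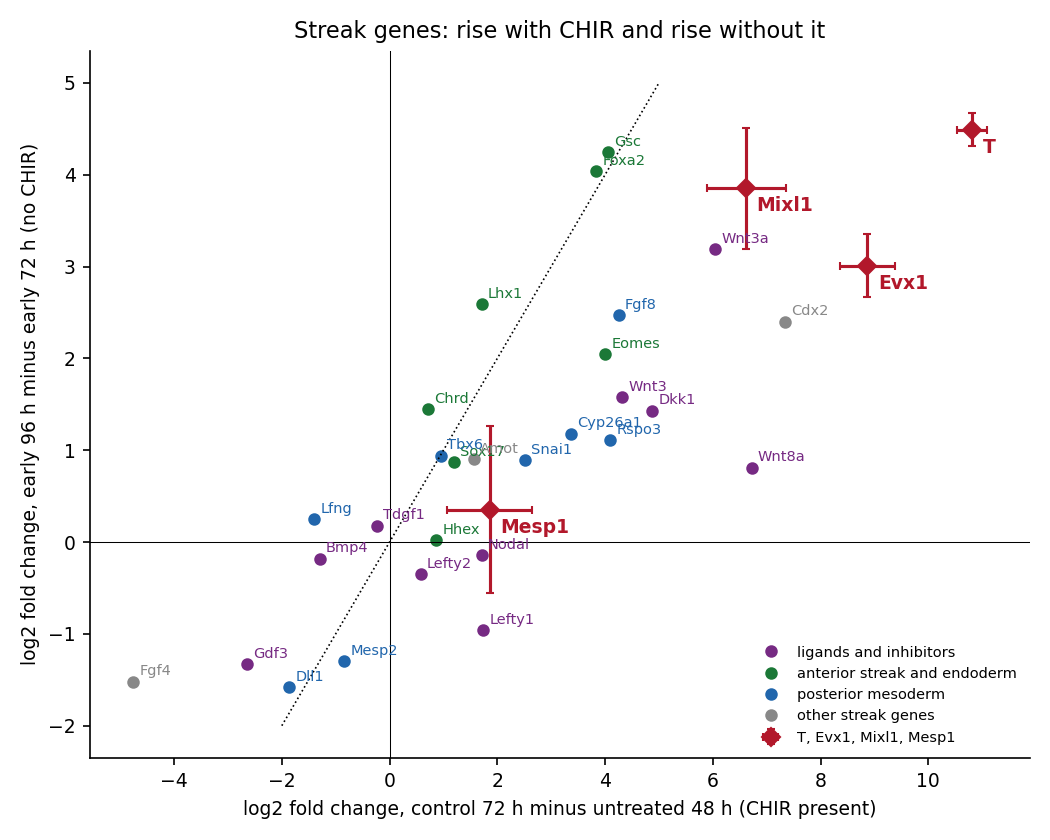
Log2 fold change with the control pulse (horizontal) and in the early arm between 72 and 96 h without CHIR (vertical), for T, Evx1, Mixl1 and Mesp1 (red diamonds, ± SE) and for list genes with a mean of at least 0.1 CPM in each of the 4 groups (circles); the dotted line marks equal change. T (10.81 and 4.49), Evx1 (8.87 and 3.01) and Mixl1 (6.62 and 3.85) lie far right of the line, while Foxa2 (3.84 and 4.04) and Gsc (4.05 and 4.25) lie on it.

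Posterior mesoderm genes, among them known targets of T, rose mainly in the control arm after its pulse. Of 11 tested, 10 rose and 0 fell between control 72 and 96 h, against 27.5% and 27.4% of all genes. With the control pulse 6 rose and 2 fell, against 31.1% and 30.3%. In the early arm between 72 and 96 h, 5 rose and 2 fell (median 0.94), against 17.6% in each direction. Tbx6, the T-box factor of presomitic mesoderm, held 1.59 ± 0.351 CPM in control 72 h, 201 ± 89 CPM in control 96 h and 1.10 ± 0.434 CPM in early 96 h. The segmentation clock gene Hes7 held 0.413 ± 0.304, 123 ± 8.37 and 0.142 ± 0.171 CPM in the same groups. At 96 h, with T at 554 and 625 CPM, 9 of the 11 genes were lower in the early arm and 0 were higher. Of all genes 29.6% were lower and 29.5% higher. Dll1, a Notch ligand, differed by -6.33 ± 0.28 and Rspo3, a Wnt agonist, by -5.32 ± 0.18. Both counts that involve control 96 h include Hes7 and Msgn1, which that group may alone have carried through the count filter. Their calls and values against it are no support, and no median of this list is given against that group.

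In the early arm between 72 and 96 h, the posterior mesoderm genes that rose included Fgf8 and Wnt3a, given above, and the retinoic acid hydroxylase gene Cyp26a1 (1.18 ± 0.26, to 4.30 ± 0.287 CPM). Dll1 fell from 12.5 ± 0.566 to 4.22 ± 0.726 CPM (-1.58 ± 0.32), and Mesp2, a paralog of Mesp1, fell by -1.30 ± 0.41. Of 10 tested genes of the Mesp1 lineage and cardiac mesoderm, 1 rose in this step and 0 fell, against 17.6% of all genes in each direction. The gene that rose was the epithelial-mesenchymal transition factor Snai1 (0.89 ± 0.27, adjusted p = 0.0141). In the control arm over the same hours, 6 of the 10 rose and 0 fell, against 27.5% and 27.4% of all genes. Pdgfra, a receptor of early mesoderm, was among them (5.36 ± 0.34). Foxc2 of this list was far lower outside control 96 h (-8.63 ± 0.82 in early 72 h). Control 96 h may alone have carried Foxc2 through the count filter, so its change there is no support.

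A wider list of 17 tested streak genes, which shares members with those above, had 12 rising and 1 falling with the control pulse (median 3.84), 8 rising and 1 falling with the early pulse (median 1.15) and 12 rising and 2 falling in early gastruloids between 72 and 96 h (median 2.40). Fgf4, an FGF of the epiblast and streak, was the gene that fell with each pulse, by -4.76 ± 0.12 and -1.10 ± 0.09, and it fell again between early 72 and 96 h by -1.52 ± 0.10. The shares called over all genes in these comparisons are those given for T, Evx1, Mixl1 and Mesp1. Sp5 and Cdx1 had 0 counts in the untreated libraries, and no fold is given against that group.

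T, Evx1 and Mixl1 followed each other over the 18 libraries. On log2 CPM, Pearson's r was 0.969 between T and Evx1, 0.898 between T and Mixl1, 0.876 between Evx1 and Mixl1, and 0.542 to 0.673 between Mesp1 and the others, over libraries that share their groups. Among 11184 expressed and tested genes, those most like T were Rtl8b (r = 0.993), Kit (0.984), Sypl (0.983), Scd2 (0.982) and Pde10a (0.981). Those most like Evx1 were Nsd2 (0.989), Rpn2 (0.983), Vangl1 (0.982), Frem2 (0.981) and Ndufaf4 (0.981). For Mixl1 they were Syngr2 (0.961), Vps54 (0.961), Cdc42ep4 (0.96), Acaa1a (0.954) and Crot (0.953).

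The 5 genes nearest to T differed from it in range. Rtl8b went from 3.88 CPM untreated to 41.5 in control 72 h and 35.3 in early 96 h, and Pde10a, a phosphodiesterase gene, from 0.505 to 24.8 and 13.7 CPM, while T went from 0.593 to 1048 and 554 CPM. Kit, the receptor for stem cell factor, went from 10.3 CPM to 51.4 and 44.7 CPM in the same groups. For Mesp1 the nearest genes were Rnf214 (0.956), Chst7 (0.948), Adamtsl2 (0.946), Ints6l (0.945) and Zdhhc16 (0.942). Mesp1 was near the floor outside control 96 h, so its r mainly measures a step up in that group. That each of these genes was highest in control 96 h follows from this and is no finding. Spearman's rho was 0.905 for Rnf214 and 0.623 to 0.692 for the rest. Chst7, for example, held 41.3 CPM in control 96 h and 1.93 to 6.47 CPM in the other groups.

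Some neighbours and relatives of the 4 genes were checked last. T2, a gene on the same strand 10909 bases from T, had group means of 0.05 to 1.22 CPM. It was called higher with the early pulse (3.00 ± 0.59), with the control pulse (4.32 ± 0.50) and between early 72 and 96 h (1.61 ± 0.40). The untreated libraries held only 3 counts of T2, and its FPKM was listed as 0 in every library. Evx1os, an antisense gene that overlaps Evx1 by 1335 bases, had mean levels of 0.159, 28 and 81.6 CPM in the control arm and 2.23, 1.51 and 8.07 CPM in the early arm at 48, 72 and 96 h. It rose with the control pulse (7.38 ± 0.39), with the early pulse (3.72 ± 0.59) and in the early arm between 72 and 96 h (2.43 ± 0.29), as Evx1 did. The strand setting of the counting is not given in the sources used here, and without it reads of Evx1 and Evx1os over the shared bases cannot be told apart. Evx2, the paralog of Evx1, had 2 counts in the whole series. Mesp2, 16938 bases from Mesp1, held 0.59 to 1.76 CPM in every group and was not called with either pulse.

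Mga, a T-box gene with a broad pattern, fell with the control pulse (-0.63 ± 0.10) and between early 72 and 96 h (-0.38 ± 0.10). Tbx3, another T-box gene, had its highest mean in early 48 h, 25.4 ± 2.21 CPM, with a rise of 4.01 ± 0.23 at the end of the early pulse and of 1.76 ± 0.25 at the end of the control pulse. It fell between early 72 and 96 h by -1.34 ± 0.21, while T and Eomes rose. Tbx4 fell with both pulses, by -1.07 ± 0.24 and -1.15 ± 0.25.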

How the data were processed

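Stranded polyA libraries were made from pooled gastruloids, per the labels' protocols, which name a pair of preparation codes without assigning libraries to them. The authors deposited raw counts per gene and FPKM values, which scale by transcript length and library size. Per the submitters' processing notes, the tools were cutadapt 4.0, STAR 2.7.8a and Cufflinks 2.2.1, and the build was mm10. The strand setting of the counting is not given in the sources used here. Per-gene counts do not say how reads on several loci were treated, which could affect paralogs.

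From the counts, 16041 genes that passed filterByExpr were scaled by TMM and fitted over all 18 libraries with 1 coefficient per group. The test was edgeR's quasi-likelihood test (edgeR 4.0.16, limma 3.58.1, R 4.3.3), 2-sided, over 13 contrasts, with Benjamini-Hochberg adjustment over all tested genes. The SE is the size of the log2 fold change divided by the square root of F. The script was tested on simulated data. Groups came from the treatment and stage labels. Alternatives were DESeq2 1.42.0 (size factors, Wald test), other filters (none, or at least 1 CPM in 3 libraries), only the groups compared, a replicate block, limma-trend on log2 FPKM with a pseudocount of 1 or 0.1, and libraries left out.

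The 4 genes, the 11 gene and marker lists (117 entries, from general knowledge) and the contrasts were chosen with earlier results of these data known. Of each list and comparison, up to 4 genes of the lowest adjusted p were to be named, and those that moved against their list. Some levels of list genes are given in groups outside the comparison that named them. The likeness measure was Pearson's r of log2 CPM (prior count 2) among genes with a group mean of at least 5 CPM, leaving out names of predicted genes. Promoter windows are from RefSeq (GRCm38.p6, the build mm10).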

Additional observations from a re-analysis of the deposited data

Results flagged for a closer look

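The change of T over the second day without CHIR in the early arm differed from its change with the control pulse by -6.32 on the log2 scale (adjusted p = 8.20e-10), and that of Evx1 by -5.86 (adjusted p = 3.08e-05). The change of T also differed from its change with the early pulse, by -1.63 (adjusted p = 0.0143), and this sign turned on log2(FPKM + 1). The change of Evx1 on the day after the pulse differed between the arms by -1.88 (adjusted p = 0.00248), with 0.63 in the control arm and -1.25 in the early arm. All 4 are tests of the difference itself, by edgeR's quasi-likelihood test.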

How the results depend on the processing

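The 4 genes gave 52 results over 13 contrasts, and 856 values under the alternatives. Of these, 761 kept direction and call, 32 lost the call, 36 gained it and 27 changed sign, 2 of them of a called result, the T difference against the early pulse given below. All 226 counts of called genes stayed within 1.5 times. Values are log2 changes, and no cause of a change was tested. Replicates left out leave groups of 2, low counts limit Mesp1, and Mesp1 did not pass the FPKM filter, so it has no value on filtered FPKM. Calls of Mesp1 that involve control 96 h, the group that carried it through the count filter, are listed here for completeness and support nothing.

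Without a filter, 8 results became called: Mixl1 with the early pulse 1.17, in early 72 h against untreated 1.13, in early against control 96 h -0.32, in the difference to the control pulse -2.76, to the early pulse 2.68 and between the arms after the pulse 1.26, T in early against control 96 h -0.16, and Evx1 in the difference to the early pulse -2.47. That fit gave far smaller adjusted p-values at nearly the same log2 values (5.94e-29 against 0.0821 for the Mixl1 difference to the control pulse), and the calls it gained are not relied on. With only the groups compared, Mixl1 became called with the early pulse (1.17), in early 72 h against untreated (1.12) and in the difference to the early pulse (2.69), as did Evx1 in that difference (-2.46), whereas the control arm's change from 72 to 96 h was no longer called for Evx1 (0.63) and Mixl1 (-1.32). DESeq2's Wald test called the differences of Mixl1 to the control pulse (-2.77) and to the early pulse (2.66) and of Evx1 to the early pulse (-2.54). Mesp1 with the control pulse was not called by it (1.92) or with DESeq2's size factors (1.85).

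On log2(FPKM + 1), on filtered and on all genes alike, the difference to the early pulse turned to 0.98 for T and 0.74 for Evx1 and was called for Mixl1 (2.33), and calls were lost for Evx1 from early 48 to 72 h (-0.56) and Mixl1 from control 72 to 96 h (-1.16) and in early 96 h against control 72 h (-1.26). Mixl1 from early 48 to 72 h became 0.02. On all genes alone, Mesp1 gave 0.17 with the control pulse, 0.00 from early 48 to 72 h and -0.80 in the difference between the arms, now called, and Evx1 lost its call from control 72 to 96 h (0.68) and in early 72 h against untreated (0.75). On log2(FPKM + 0.1), Mixl1 gave -1.25 from control 72 to 96 h and -1.32 in early 96 h against control 72 h, no longer called, 0.05 from early 48 to 72 h, and -2.28 and 2.79 in the differences to the control and early pulse, both called. Evx1 gave 0.71 from control 72 to 96 h, not called.

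Without the 3 control libraries numbered 3, Evx1 from control 72 to 96 h was no longer called (0.11) and the T difference between the arms was -0.02. Calls were gained for Mesp1 between the ends of the pulses (1.83), T (-0.33) and Mixl1 (-0.74) in early against control 96 h, Mixl1 in the differences to the control pulse (-3.15), to the early pulse (2.73) and between the arms (1.28), Evx1 in the difference to the early pulse (-2.66) and Mesp1 in that between the arms (-2.75).

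The labels share replicate numbers across groups but do not say what they mark. Deviations of same-numbered libraries correlated at -0.06 to 0.16 over 15 pairs of groups, with 0 pairs over 0.1 throughout, and 14 of 18 libraries correlated best with their own number, a hint from the data and not from the design. With the replicate number as a block, 4 results became called and no call was lost: Mesp1 between the ends of the pulses (1.55), Mixl1 in the differences to the control pulse (-2.57) and to the early pulse (2.71), and Mesp1 in the difference between the arms (-2.73).

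With single libraries left out, the results that changed call or sign ran as follows. Mesp1 ran from -0.29 to 1.5 with the early pulse, 1.26 to 3.05 with the control pulse, -0.41 to 0.42 from early 48 to 72 h, -0.44 to 1.35 in early 72 h against untreated, -0.03 to 0.61 from early 72 to 96 h, -1.15 to 0.64 in the difference to the early pulse and -3.21 to -2.18 in that between the arms. Evx1 ran from -1.48 to -1.07 from early 48 to 72 h and 0.36 to 0.90 from control 72 to 96 h. Mixl1 ran from -0.22 to 0.02 from early 48 to 72 h, -1.76 to -0.77 from control 72 to 96 h, -2.10 to -1.09 in early 96 h against control 72 h and -3.21 to -2.21 in the difference to the control pulse. T ran from -0.33 to -0.02 in early against control 96 h, -1.83 to -1.28 in the difference to the early pulse and -0.13 to 0.18 in that between the arms.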
